A study of Sus scrofa with 16 samples.

Results

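The mRNAs examined here encode the nuclear-encoded subunits of oxidative phosphorylation. Members were the genes of the deposited comparison table that lie off chromosome MT and carry a symbol of the NDUFA, NDUFB, NDUFC, NDUFS, NDUFV, SDH, UQCR, COX4 to COX8 or ATP5 series. The rule found 50 of the 11433 genes of that table, and each was joined by its Ensembl identifier to the count table of 25880 genes. Complex I had 24 members, complex II 3, complex III 4, complex IV 10 and complex V 9. A further 20 nuclear subunits, without such a symbol in that table, were named through an identifier table and are given beside them, as are the 13 mRNAs of mitochondrial DNA. The rule itself used no measured value, although it needed a row in the authors' table.

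Pituitary mRNA was counted in 16 Puławska gilts. Replicates 1 to 8 had a low feed conversion (LFC) and replicates 9 to 16 a high one (HFC), feed conversion being the feed taken per unit of gain. All were females of the same breed with no treatment given, labelled as 3 months old, although the methods of the study put the end of the test at a higher age. The gilts were unrelated and came from different farms, and each replicate is a separate animal. The glands were homogenised whole, so a library mixes the lobes and any tissue left on them, and fewer cells of a type cannot be told apart from less RNA per cell.

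Oxidative phosphorylation takes place in the inner mitochondrial membrane. Complexes I and II feed electrons from NADH and succinate to ubiquinone, complex III passes them to cytochrome c, complex IV passes them to oxygen, and complex V uses the resulting proton gradient to make ATP. Complexes I, III, IV and V combine subunits made from nuclear and from mitochondrial genes, whereas complex II is wholly nuclear, so the mRNAs of 1 machine come from separate transcription systems.

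The libraries held 10.973 to 23.06 M counts each. The label of tissue was checked by pituitary markers. The summed level of 5 anterior lobe hormone genes lay between 13949 and 169292 CPM (counts scaled to a common library size), and the lowest library was HFC replicate 16, which had the highest intermediate lobe sum, 246298 CPM. The extraction text of the labels speaks of fat samples, whereas the tissue field says pituitary. Muscle markers were found at 39915 CPM in HFC replicate 14 and at no more than 59.6 CPM in the other 15 libraries. LFC replicate 5 stood apart for the subunits described here, so the main values are given with and without it. It also stood apart over all genes tested. Its score on their first principal component was 126, beside 75.1 in HFC replicate 13, the next highest. Its scaling factor for library size was the lowest of the libraries, 0.751.

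The 50 subunit mRNAs did not separate the groups. Their mean level per library was 6.32 ± 0.54 log2 CPM in LFC (SD, n = 8) and 6.34 ± 0.42 log2 CPM in HFC (SD, n = 8), a difference of 0.019. In LFC the lowest, median and highest libraries had 5.86, 6.22 and 7.62 log2 CPM, and in HFC 5.91, 6.18 and 6.99 log2 CPM. The ranges overlapped over most of their length, and only 3 of 8 HFC libraries lay above the LFC mean. LFC replicate 5 held the value of 7.62, while the other LFC libraries lay between 5.86 and 6.25. HFC replicates 13 and 14 had 6.99 and 6.92, and the other HFC libraries lay between 5.91 and 6.47.

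The mitochondrially encoded mRNAs of the same complexes lay higher in HFC. Their mean per library was 10.03 ± 0.50 log2 CPM in LFC (SD, n = 8) and 10.77 ± 0.54 log2 CPM in HFC (SD, n = 8), a difference of 0.75, and 7 of 8 HFC libraries lay above the LFC mean. LFC replicate 3 was the lowest with 8.88 log2 CPM and HFC replicate 16 the highest with 11.86. The mean of the mitochondrially encoded mRNAs exceeded that of the nuclear ones by 3.70 ± 0.76 log2 units in LFC (SD, n = 8) and by 4.43 ± 0.81 log2 units in HFC (SD, n = 8). This gap was narrowest in LFC replicate 5, at 2.33, and widest in HFC replicate 16, at 5.90. Without LFC replicate 5 the group difference of the means was 0.20 for the nuclear and 0.74 for the mitochondrially encoded mRNAs.

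**Figure D1:**
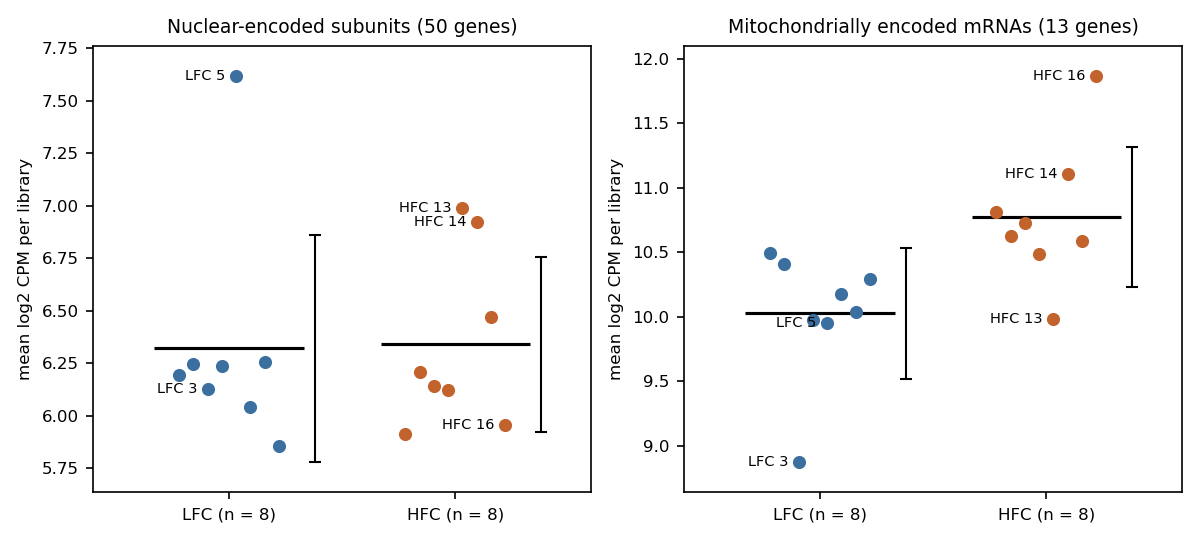
Mean log2 CPM per library of the 50 nuclear-encoded subunits (left) and of the 13 mitochondrially encoded mRNAs (right), for LFC (blue, n = 8) and HFC (orange, n = 8). Each point is a library, lines are group means and bars are SD. On the left LFC replicate 5 lies at 7.62, above every other library, and on the right HFC replicate 16 lies at 11.86.

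Each gene was compared between groups with edgeR on the counts of all genes, and a log2 fold change is HFC over LFC. All 50 members passed the filter on low counts, and the lowest count of any member in any library was 19. A call needed an adjusted p-value no higher than 0.05 and a fold of 1.3 or more, and edgeR called 0 members and 0 of the 14319 genes tested, 0%. At an unadjusted p under 0.05 there were 0 of 50 members, against 834 of all genes, 5.82%, of which most were higher in HFC (4.29% of all genes higher, 1.53% lower). The smallest unadjusted p-value of edgeR among the members was 0.199, with an adjusted p-value of 0.9999. DESeq2 called 0 members and 6 genes in all, 0.0419%, and limma-voom called 0 of either, 0%. At an unadjusted p under 0.05 both had 0 members, beside 6.63% of all genes with DESeq2 and 3.88% with limma-voom.

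The log2 fold changes of the members were small and mostly below 0. They were above 0 for 16 members and below 0 for 34, while 48.4% of all genes tested lay above 0. With DESeq2, which by default replaces counts marked as outliers in groups of this size, 21 members lay above 0 (47% of all genes). With limma-voom 29 did (51.3% of all genes). In edgeR their median was -0.058, beside -0.0077 over all genes, and they ran from -0.43 for COX4I2 to 0.50 for COX6A2. Of the 50 values, 48 were smaller than a fold of 1.3 in either direction. The 95% intervals of 43 members lay within a fold of 2 either way (a log2 value of 1), so a larger difference was outside the interval for these genes. For no member did the libraries of the groups fall without overlap, beside 3 of all genes tested, 0.021%.

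The 13 mitochondrially encoded mRNAs all had log2 fold changes above 0, with a median of 0.71, which is a fold of 1.64. Of the 13, 10 had an unadjusted p under 0.05, all higher in HFC, where 4.29% of all genes were. None was called, and their smallest adjusted p-value by edgeR was 0.612. MT-ND6, a membrane subunit of complex I whose mRNA comes from the opposite strand to the others, had 5.31, 8.24 and 9.05 log2 CPM as lowest, median and highest in LFC and 8.55, 9.38 and 10.03 in HFC. Its log2 fold change was the largest of the 13, 1.26 ± 0.37 (SE), and all 8 HFC libraries lay above the LFC mean. MT-CO2, a core subunit of complex IV, had the smallest, 0.46 ± 0.25 (SE), with 10.77, 11.76 and 12.86 log2 CPM in LFC and 11.61, 12.30 and 12.95 in HFC. The groups overlapped for both. HFC replicate 16 was the highest library for all 13, so the 13 are not independent results. Without HFC replicate 16 the median of the 13 was 0.46, and 4 lay under a fold of 1.3. In that fit 7 of the 13 had an unadjusted p under 0.05 by edgeR, all higher in HFC, as did 417 of 14353 genes tested. Levels of lobe markers are given beside these. Over all genes tested 48.4% lay above 0, and 5.82% had an unadjusted p under 0.05 by edgeR. Intermediate lobe markers had 4 of 4 log2 fold changes above 0, all 4 at an unadjusted p under 0.05. Their summed level was 6035, 20008 and 77447 CPM as lowest, median and highest in LFC and 23034, 47804 and 246298 CPM in HFC. The value of 77447 was that of LFC replicate 5, where POMC, which corticotrophs of the anterior lobe also express, made up 99.8%. PCSK2 and PAX7 lay below the other LFC libraries there. Posterior lobe glia markers had 7 of 9 above 0, 3 at an unadjusted p under 0.05, with sums of 251, 411 and 1362 CPM in LFC and 127, 996 and 3839 CPM in HFC. HFC replicate 16 had the highest sum of both lists. Anterior lobe hormones had 0 of 5 above 0, 1 at an unadjusted p under 0.05, with sums of 52376, 128640 and 165954 CPM in LFC and 13949, 79043 and 169292 CPM in HFC. No gene of these lists was called, and the part of the lobes in the mitochondrially encoded mRNAs was not tested.

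**Figure D2:**
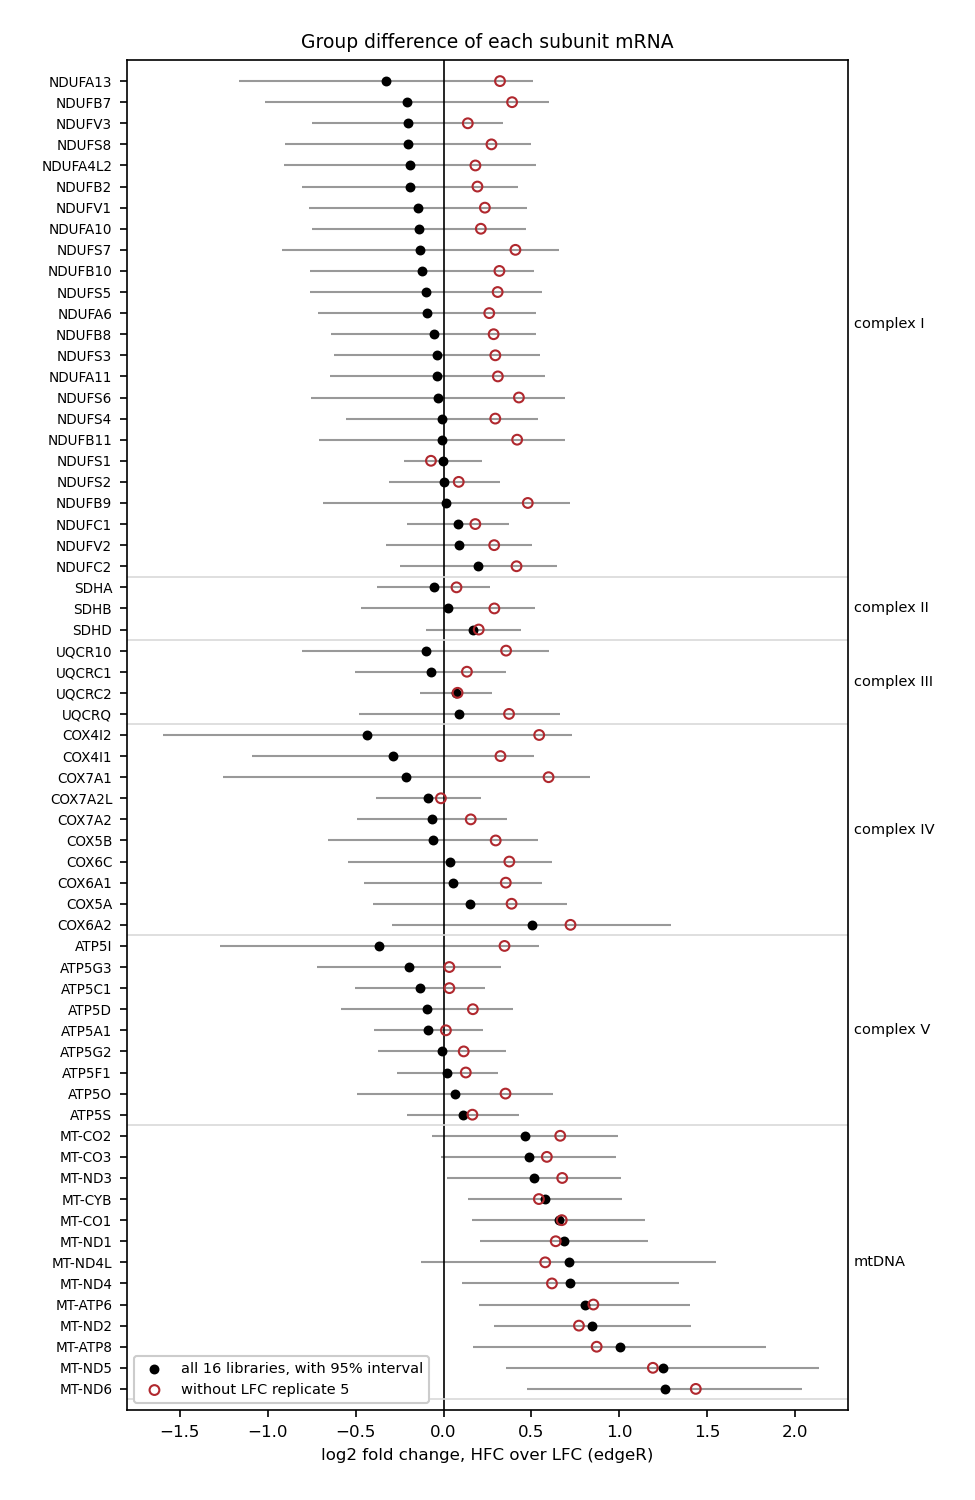
Log2 fold change, HFC over LFC, of the 50 members by complex and of the 13 mitochondrially encoded mRNAs (mtDNA). Black points with lines are edgeR values with 95% intervals on all 16 libraries, and open red circles are the values without LFC replicate 5. All 50 intervals of the members cross 0, and 48 of the 50 red circles lie above 0.

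The sign of the members' differences rested on LFC replicate 5. Without it, 48 of 50 members had log2 fold changes above 0, beside 54.6% of all genes, and the median was 0.29. An unadjusted p under 0.05 was then reached by 3 members, where 11.9% of all genes reached it, and 0 members were called. They were NDUFC2 (0.41 ± 0.15, SE), COX6A1 (0.35 ± 0.15, SE) and NDUFB9 (0.48 ± 0.21, SE), of which NDUFC2 and NDUFB9 were chosen after their values were seen. Without LFC replicate 5 and HFC replicates 13, 14 and 16, a choice made after seeing the data, 34 members lay above 0, beside 53.1% of all genes, and the median was 0.039, with 0 members at an unadjusted p under 0.05 (4.35% of all genes). The median of the mitochondrially encoded mRNAs was 0.67 in the former case and 0.44 in the latter. With 1 surrogate variable as a covariate, 13 members lay above 0 (55.1% of all genes), and 9 members reached an unadjusted p under 0.05 (12.4% of all genes), all of them lower in HFC. None of the 9 was called by edgeR, with a smallest adjusted p-value of 0.314. The surrogate was highest in LFC replicate 5 (0.70), HFC replicate 13 (0.42) and HFC replicate 14 (0.28). These libraries also had the highest means of the members. Both were lowest in LFC replicate 8 (-0.28 for the surrogate), so this fit adjusts for a level close to that of the members.

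The members moved together across libraries. The correlation of a member with the mean of the others over the 16 libraries had a median Pearson r of 0.97 and was above 0.9 for 39 of 50. These values share libraries and scaling and are a description. LFC replicate 5, which also stood apart over all genes, weighs on them. The same correlation was not computed for other genes or without that library. The subunits named only through the identifier table followed the members with r = 0.996 and Spearman's rho = 0.97 (n = 16), and r = 0.989 without the 2 libraries farthest from the median. The mitochondrially encoded mRNAs did not follow them, with r = -0.17 and rho = -0.28 (n = 16), and r = 0.10 without LFC replicate 5 and HFC replicate 13. Total counts per library on a log2 scale gave r = -0.53 and rho = -0.24 with the members' mean (n = 16), and r = -0.42 without the same 2 libraries.

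**Figure D3:**
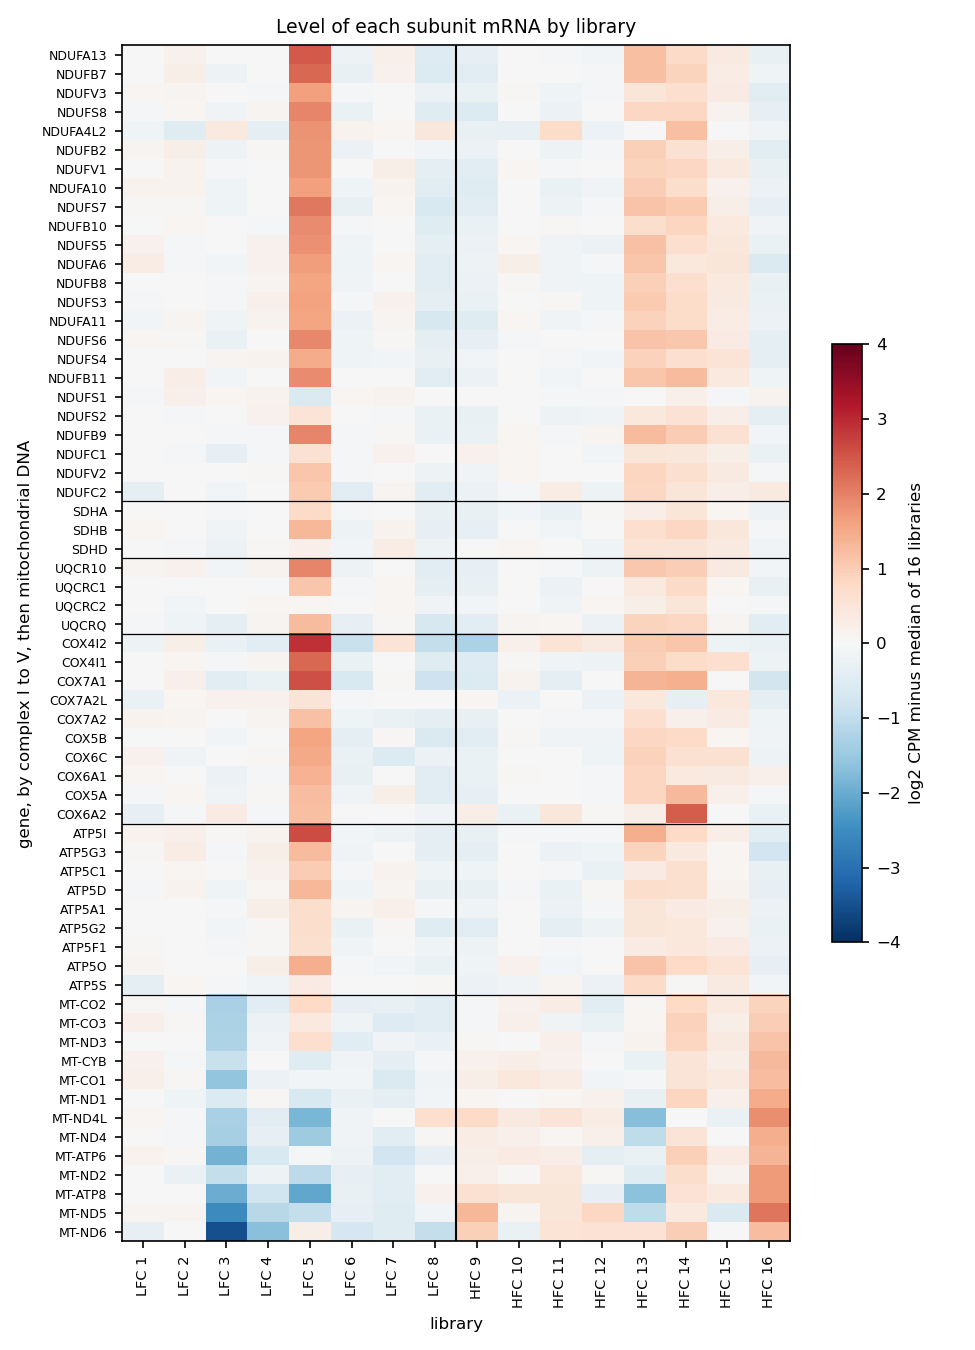
Log2 CPM of each member (complexes I to V from top to bottom) and of the 13 mitochondrially encoded mRNAs (bottom block) in the 16 libraries, after subtraction of the gene's median over the libraries. Red is higher and blue lower, and the vertical line parts LFC from HFC. LFC replicate 5 is red for nearly all nuclear members and HFC replicate 16 is red for all 13 mitochondrially encoded mRNAs.

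Complex I takes electrons from NADH. Its 24 members had 5 log2 fold changes above 0 and 19 below, with a median of -0.075. The 7 core subunits, among them those that hold the flavin and the iron-sulfur clusters, had a median of -0.039, and the 16 accessory subunits had a median of -0.075. NDUFA13 (ENSSSCG00000013936, chromosome 2, 58401427 to 58411981 in Sscrofa11.1), an accessory subunit also known as GRIM-19, had 5.83, 6.35 and 8.79 log2 CPM as lowest, median and highest in LFC and 6.03, 6.31 and 7.55 in HFC. The medians were close and the highest value belonged to LFC replicate 5. Its log2 fold change was -0.33 ± 0.40 (SE), the lowest of complex I, and 0.32 without that library.

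NDUFB7, an accessory subunit of the membrane arm, had a log2 fold change of -0.21 ± 0.38 (SE). NDUFV3, an accessory subunit of the NADH-binding module, had -0.20 ± 0.26 (SE). NDUFA4L2, a paralog of NDUFA4 known to be induced in hypoxia, was a low mRNA, with 1.41, 2.003 and 3.69 log2 CPM in LFC and 1.59, 1.81 and 3.09 in HFC, and a log2 fold change of -0.19 ± 0.34 (SE). NDUFA4, now counted with complex IV, was among the further subunits and had 0.29 ± 0.35 (SE), and 0.63 without LFC replicate 5. Its highest library was HFC replicate 14, at 6.74 log2 CPM, beside 4.43 to 5.56 in the other HFC libraries. Without HFC replicate 14 no further subunit had a log2 fold change above 0.092. Without that library 23 of 24 complex I members lay above 0. The exception, NDUFS1, the largest core subunit, is singled out after its values were seen. It had 6.49, 7.16 and 7.28 log2 CPM in LFC and 6.998, 7.08 and 7.29 in HFC. Its lowest value was in LFC replicate 5, the opposite of the other members, and its correlation with their mean was -0.57. Its log2 fold change was -0.0019 ± 0.11 (SE).

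Complex II, succinate dehydrogenase, also belongs to the tricarboxylic acid cycle. SDHA, its flavoprotein, had 7.49, 7.78 and 8.54 log2 CPM in LFC and 7.49, 7.74 and 8.27 in HFC. The groups covered nearly the same range, and the log2 fold change was -0.055 ± 0.15 (SE). SDHB, the iron-sulfur subunit, had 0.026 ± 0.24 (SE). SDHD, a membrane anchor, had 6.04, 6.27 and 6.58 log2 CPM in LFC and 6.12, 6.33 and 6.84 in HFC, and LFC replicate 5 was not its highest library. Its log2 fold change was 0.17 ± 0.13 (SE), with an unadjusted p = 0.199 and an adjusted p = 0.9999 by edgeR. Of its 8 HFC libraries, 5 exceeded the mean of LFC.

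Complex III, the cytochrome bc1 complex, had 2 members above 0 and 2 below. UQCR10, a small accessory subunit, had 5.26, 5.76 and 7.67 log2 CPM in LFC and 5.37, 5.70 and 6.80 in HFC, with a log2 fold change of -0.10 ± 0.33 (SE). UQCRC1, a core protein, had -0.074 ± 0.20 (SE), and UQCRQ, another small subunit, had 0.090 ± 0.27 (SE). UQCRC2, the other core protein and named after its values were seen, was the steadiest member. Its 16 libraries spanned 0.64 log2 units, from 6.76 to 7.01 log2 CPM in LFC and from 6.77 to 7.40 in HFC, while the median span of a member was 2.03.

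Complex IV, cytochrome c oxidase, has subunits that exist as isoforms used in different tissues. COX4I1 (ENSSSCG00000029034, chromosome 6, 3131019 to 3137482), the common form of subunit 4, had 7.51, 7.98 and 10.29 log2 CPM in LFC and 7.47, 7.93 and 8.93 in HFC. COX4I2 (ENSSSCG00000038384, chromosome 17, 35340572 to 35346087), the form known from lung and from low oxygen, had 0.77, 1.496 and 4.65 log2 CPM in LFC and 0.45, 2.01 and 2.82 in HFC. Both were highest in LFC replicate 5, and the remaining libraries of the groups overlapped. The log2 fold changes were -0.29 ± 0.38 (SE) for COX4I1 and -0.43 ± 0.55 (SE) for COX4I2. Without LFC replicate 5 they were 0.32 and 0.54.

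COX6A2 (ENSSSCG00000036789, chromosome 3, 17113357 to 17135104), the heart and skeletal muscle form of subunit 6A, had the largest log2 fold change above 0. It had 3.81, 4.08 and 5.33 log2 CPM in LFC and 3.86, 4.30 and 6.56 in HFC. The value of 6.56 was that of HFC replicate 14, while the other HFC libraries lay between 3.86 and 4.58. The log2 fold change was 0.50 ± 0.37 (SE), and without HFC replicate 14 it was -0.085 ± 0.21 (SE). In that library the skeletal muscle actin ACTA1 was at 17514 CPM and the muscle creatine kinase CKM at 3983 CPM, and in the other 15 libraries these genes did not exceed 9.26 and 2.95 CPM. All 6 muscle markers found were highest there, and their part in the level of COX6A2 was not tested. COX6A1 (ENSSSCG00000039265), the form of most other tissues, had 7.01, 7.39 and 8.82 log2 CPM in LFC and 7.16, 7.56 and 8.29 in HFC, with a log2 fold change of 0.054 ± 0.24 (SE).

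COX7A1 (ENSSSCG00000037792, chromosome 6, 45517229 to 45520721), the muscle form of subunit 7A, had 4.60, 5.29 and 8.02 log2 CPM in LFC and 4.69, 5.43 and 6.84 in HFC. LFC replicate 5 was its highest library, and its muscle marker sum was 33.8 CPM, beside 15.3 to 29.9 CPM in the other LFC libraries. Its highest HFC value, 6.84, was that of HFC replicate 14, the library with muscle markers, followed by 6.78 in HFC replicate 13. The log2 fold change was -0.21 ± 0.49 (SE), 0.60 without LFC replicate 5, and -0.44 ± 0.50 (SE) without HFC replicate 14. COX7A2, the form of other tissues, had -0.064 ± 0.20 (SE). In all, complex IV had 4 log2 fold changes above 0 and 6 below, with a median of -0.062. Without LFC replicate 5 and HFC replicates 13, 14 and 16 all 10 lay above 0, up to 0.25, and none had an unadjusted p under 0.05. COX6B2, a form known from testis, was among the further subunits and was filtered out as low.

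**Figure D4:**
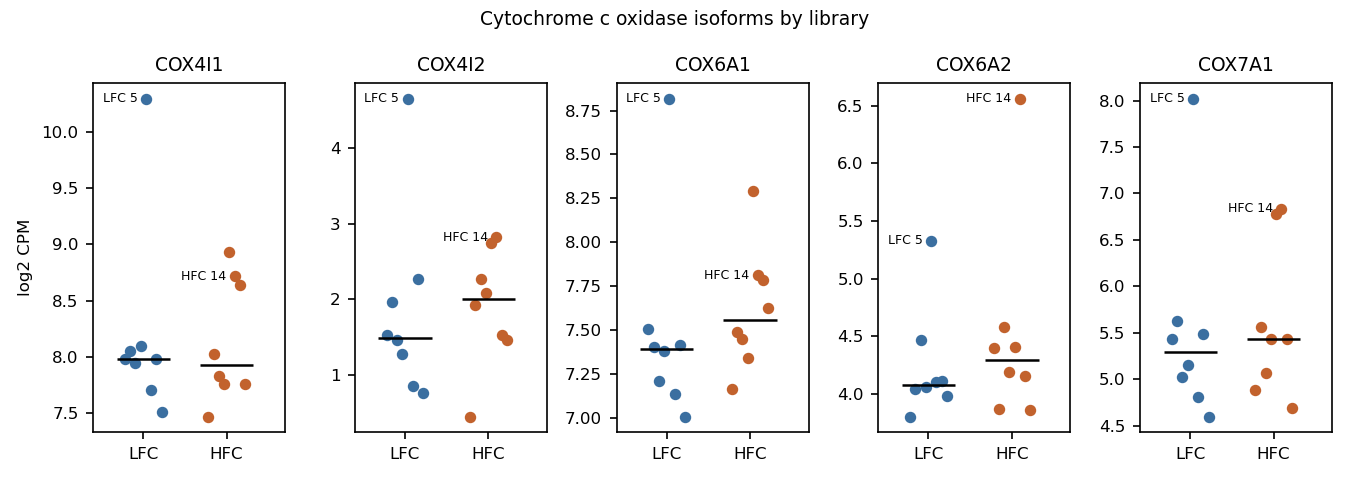
Log2 CPM of 5 cytochrome c oxidase isoform mRNAs in each LFC (blue, n = 8) and HFC (orange, n = 8) library, with lines at the group medians and a separate vertical scale for each gene. LFC replicate 5 is the highest library for 4 of the genes, and HFC replicate 14 is the highest for COX6A2, at 6.56.

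Complex V, the ATP synthase, had 3 members above 0 and 6 below, with a median of -0.085. ATP5I (ENSSSCG00000023903, chromosome 8, 112025 to 113574), subunit e of the membrane sector, had 5.81, 6.30 and 8.81 log2 CPM in LFC and 5.79, 6.15 and 7.67 in HFC. The highest value was again that of LFC replicate 5. Its log2 fold change was -0.36 ± 0.43 (SE), and 0.35 without that library. ATP5G3, a gene of the proton-carrying c-ring, had -0.20 ± 0.25 (SE), and ATP5C1, the rotating gamma subunit, had -0.13 ± 0.18 (SE). Both had 0.033 without LFC replicate 5. The 3 members of the catalytic F1 head had log2 fold changes from -0.13 to -0.085, and the 5 of the membrane sector and stalk ran from -0.36 to 0.066. Without LFC replicate 5 all 9 lay above 0 with a median of 0.13, beside a median of 0.29 for complex I, 0.24 for complex III and 0.36 for complex IV.

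LFC replicate 5 was the highest of the 16 libraries for 43 of 50 members, 22 in complex I, 2 in complex II, 3 in complex III, 8 in complex IV and 8 in complex V. It was the highest for 26.4% of all genes tested. HFC replicate 14 was highest for 5 members and HFC replicate 13 for 2. For the 13 mitochondrially encoded mRNAs HFC replicate 16 was the highest library in all 13 cases. Against the median of the other LFC libraries, the members in LFC replicate 5 lay higher by a median of 1.54 log2 units, a fold of 2.90, from -0.68 for NDUFS1 to 3.19 for COX4I2. The excess was above 1 log2 unit for 39 members, 78%, and for 19.7% of all genes. The median of the mitochondrially encoded mRNAs was -0.41 in the same library, from -1.78 for MT-ATP8 to 1.11 for MT-CO2.

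The excess in LFC replicate 5 was larger for members with a short annotated gene. Spearman's rho with the span of the gene was -0.51 over the 50 members and -0.48 over 11418 genes of the table. The 16 members with the shortest spans (1550 to 6773 bp) had a median excess of 1.87, and the 16 with the longest (15382 to 114335 bp) had 1.29. HFC replicate 13 had a median excess of 0.86 over the other HFC libraries and a rho of -0.48 with span, and HFC replicate 14 had 0.77 and -0.31. In HFC replicate 16 the median difference was -0.28 for the members and 1.12 for the mitochondrially encoded mRNAs. Genes share libraries and are not independent replicates, so these values are a description.

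**Figure D5:**
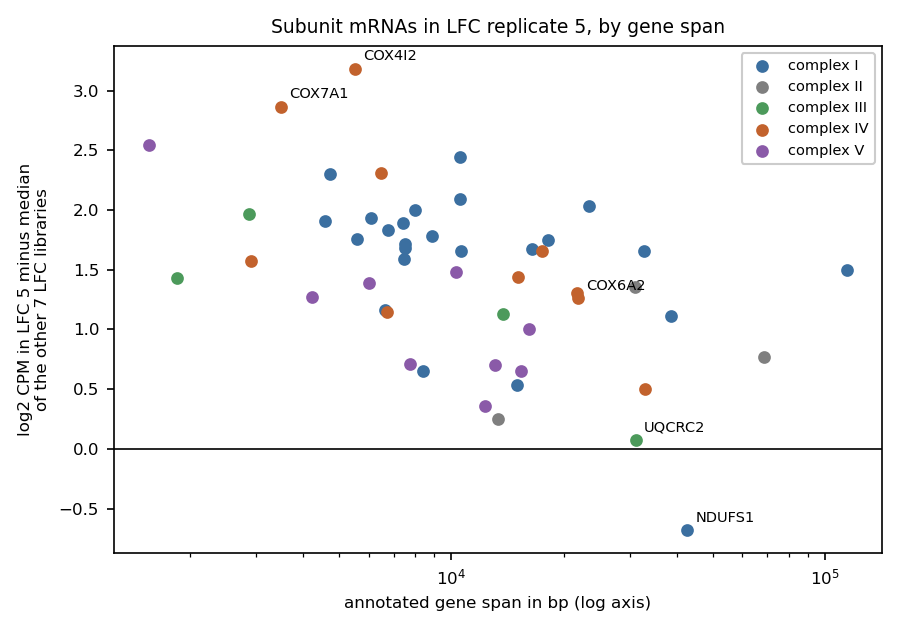
Log2 CPM in LFC replicate 5 minus the median of the other 7 LFC libraries (vertical axis) against the annotated span of the gene in bp (horizontal log axis), with 1 point for each of the 50 members, coloured by complex. All members but NDUFS1 lie above 0, and the excess reaches 3.19 for COX4I2.

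Markers of some other cells also lay apart in LFC replicate 5, which was the highest of the 16 libraries for 26.4% of all genes tested. The share of all genes above the other LFC libraries is not given here. The summed markers of microglia and macrophages were at 714 CPM there and at 127 to 311 CPM in the other LFC libraries, and 7 of 8 lay above all of those libraries. The erythrocyte sum was 1275 CPM against 79.0 to 492 CPM, with 3 of 3 above, and HBB made up 98.3% of it. The sum of stem and folliculostellate cells was 705 CPM against 242 to 386 CPM, with 3 of 5 above. S100A1 made up 62.9% of that sum, and SOX9 and ALDOC lay within the range of the other LFC libraries. Endothelium had 1 of 5 markers above the other LFC libraries and 2 below, and fibroblasts had 0 of 6 above and 1 below. Muscle markers had 3 of 6 above, and anterior lobe hormones 1 of 5. The lobe lists were mixed. The posterior lobe glia sum was 1362 CPM against 251 to 622 CPM, and CRYM and VIM made up 50.2% and 43.5% of it. Of those 9 markers 5 lay above the other LFC libraries and 2 below, SCN7A at -0.75 log2 CPM (1.09 to 2.92 in the others) and AQP4 at 2.95 (4.11 to 4.74). The intermediate lobe sum was 77447 CPM against 6035 to 32313 CPM, of which POMC, a gene that anterior lobe corticotrophs also express, made up 99.8%. Of the 4 intermediate lobe markers POMC alone lay above the other LFC libraries, and PCSK2, at 1.37 log2 CPM (1.64 to 4.78 in the others), and PAX7, with a count of 0 (which allows up to 3 counts), lay below. The part of these cells in the excess of the subunit mRNAs was not tested.

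Other genes of the pathway were described by lists, of which none held a called gene. The list of cytochrome c and other carriers (CYCS, CYC1, ETFA, ETFB, ETFDH and NDUFAB1) had 2 of 6 log2 fold changes above 0. Its median was -0.029, and 5 of 6 lay above 0 without LFC replicate 5. CYC1 was also among the further subunits, and NDUFAB1 is an acyl carrier protein and not an electron carrier. Assembly factors of complex I had 8 of 15 above 0, those of complexes II and III 3 of 9, those of complex IV 3 of 15 and those of complex V 2 of 3. Genes of mitochondrial DNA maintenance and expression had 7 of 19 above 0 and a median of -0.0091. None of these lists had a gene at an unadjusted p under 0.05. The tricarboxylic acid cycle had 12 of 17 above 0, and 10 of 17 without LFC replicate 5. With all libraries its median was 0.022, with SUCLA2, a subunit of succinyl-CoA synthetase, at 0.27 ± 0.15 (SE).

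Among 11 regulators of mitochondrial genes, 6 had log2 fold changes above 0. Without LFC replicate 5, 7 did, and 2 had an unadjusted p under 0.05 by edgeR. With all libraries 1 had an unadjusted p under 0.05. This was PPARGC1B, a coactivator of nuclear genes for mitochondrial proteins, with 0.27 ± 0.48 log2 CPM in LFC (SD, n = 8) and 1.06 ± 1.09 log2 CPM in HFC (SD, n = 8), a log2 fold change of 1.19 ± 0.45 (SE) and an adjusted p = 0.707 by edgeR. Its relative PPARGC1A had -0.40 ± 0.21 (SE). Of 11 carriers and outer membrane proteins, 6 lay above 0, and 9 without LFC replicate 5, where 1 had an unadjusted p under 0.05 by edgeR. SLC25A4, the adenine nucleotide carrier of heart and muscle, had 0.49 ± 0.25 (SE), and without HFC replicate 14, the library with muscle markers and its highest at 9.05 log2 CPM, 0.24 ± 0.20 (SE). UCP3, an uncoupling protein of muscle, had 1.13 ± 0.66 (SE), and 1.03 without that library.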

How the data were processed

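The counts were deposited by the authors as whole numbers per gene, with 1 column per library and no normalisation. Per the methods and the submitters' processing notes, reads from a kit that keeps no strand were aligned to Sscrofa11.1 with STAR and counted with RSEM, so whether the counts are rounded estimates is not stated. A separate deposited table holds the authors' comparison (group means, fold, log2 fold, p-value and adjusted p-value). Those columns were not used, only its symbols and positions. The samples were grouped by the label of feed conversion, and no column of another sample was used.

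LFC and HFC were compared by quasi-likelihood in edgeR 4.0.16 under R 4.3.3 (glmQLFit and glmQLFTest), on all 16 libraries with TMM scaling and filterByExpr, without covariates, and p-values were adjusted by Benjamini-Hochberg over 14319 genes. The filter removed 11561 genes, 6308 of which had no count. Calls needed an adjusted p-value no higher than 0.05 and a fold of 1.3 or more. The SE is the size of the log2 fold change divided by the square root of F. Log2 CPM used a prior count of 2. Alternatives were DESeq2 1.42.0, limma-voom (limma 3.58.1), other scalings and filters, 1 surrogate variable (sva 3.50.0) and leaving out libraries. DESeq2 ran at its defaults, which replace counts marked as outliers in groups of this size, and the number replaced was not recorded. The steps were tested on simulated data. A total of 10.973 to 23.06 M counts per library sets the counting precision.

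Members named with values were the 3 largest log2 fold changes of each complex and both genes of isoform pairs, and for other lists the largest. A further clause on levels per coding length could not be applied, since no lengths were used here. The members, lists and roles were chosen with earlier results of these data known. Symbols are as deposited, and newer names differ (ATP5I is ATP5ME). ATP5S and COX7A2L are not strict subunits. NDUFA4L2 was counted with complex I by its symbol alone, although its paralog NDUFA4 is now counted with complex IV. Of the 50 members, 24 overlap another gene of the table, where strandless counts are uncertain, as are those of genes with near-identical copies, mitochondrial genes with nuclear copies included.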

Additional observations from a re-analysis of the deposited data

Results flagged for a closer look

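Of 56 checks of 8 libraries each for a single distant value, 27 found one. Independent checks would give about 2.8 by chance, but these share libraries and genes, so that figure is no test. LFC replicate 5 accounted for 25 of the 27. In log2 CPM its mean was 7.62 for all members (other LFC libraries 5.86 to 6.25), 7.42 for the further subunits, 7.39 for complex I, 7.56 for complex II, 7.69 for complex III, 7.63 for complex IV and 8.20 for complex V. For single genes it was above the other LFC libraries at 8.79 for NDUFA13, 3.69 for NDUFA4L2, 7.75 for NDUFB7 and 7.36 for NDUFV3 in complex I, at 8.54 for SDHA and 7.65 for SDHB in complex II, and at 7.67 for UQCR10, 8.39 for UQCRC1 and 7.70 for UQCRQ in complex III. In complex IV it was at 10.29 for COX4I1, 4.65 for COX4I2, 8.82 for COX6A1, 5.33 for COX6A2, 8.02 for COX7A1 and 7.60 for COX7A2, and in complex V at 8.07 for ATP5C1, 9.13 for ATP5G3 and 8.81 for ATP5I.

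HFC replicate 14 was distant for COX6A2, at 6.56 beside 3.86 to 4.58 in the other HFC libraries. LFC replicate 3 was distant for the mean of the mitochondrially encoded mRNAs, at 8.88 beside 9.95 to 10.49 in the other LFC libraries, and its mean of the nuclear members, 6.13, was not.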

How the results depend on the processing

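No member was called under any of the alternatives run. The number of members with a log2 fold change above 0, 16 in the comparison reported, was 29 with limma-voom, 34 without LFC 5 and HFC 13, 14 and 16, and 43 without LFC 5 and HFC 14. With single libraries left out it was lowest, 6, when HFC replicate 14 was missing and highest, 48, when LFC replicate 5 was. Their median ran from -0.17 to 0.29 in these fits, the first without HFC replicate 13. The number at an unadjusted p under 0.05 was 0 to 3 in these fits and 2 without LFC 5 and HFC 14. It was 9 with 1 surrogate variable, which ran close to the members' own level. The median of the mitochondrially encoded mRNAs was lowest, 0.46, when HFC replicate 16 was missing and highest, 0.84, when HFC replicate 13 was. Scaling by total counts or upper quartile gave 21 and 18 members above 0. Signs turned for single genes, and the cause was not tested. DESeq2 replaces counts marked as outliers, so its values need not rest on every deposited count of a gene. When each library was left out in turn, the log2 fold changes ran from -0.24 to 0.033 for ATP5C1, -0.37 to 0.033 for ATP5G3, -0.63 to 0.35 for ATP5I, -0.42 to 0.32 for COX4I1, -0.58 to 0.54 for COX4I2, -0.065 to 0.35 for COX6A1, -0.085 to 0.72 for COX6A2, -0.44 to 0.60 for COX7A1, -0.17 to 0.15 for COX7A2, -0.52 to 0.32 for NDUFA13, -0.40 to 0.18 for NDUFA4L2, -0.39 to 0.39 for NDUFB7, -0.30 to 0.14 for NDUFV3, -0.14 to 0.074 for SDHA, -0.086 to 0.29 for SDHB, -0.25 to 0.36 for UQCR10, -0.20 to 0.13 for UQCRC1 and -0.044 to 0.37 for UQCRQ. For these 18 genes the highest value was that without LFC replicate 5 and the lowest that without HFC replicate 13 or 14. Without LFC 5 and HFC 14 the values were 0.27 for ATP5I, 0.24 for COX4I1, 0.39 for COX4I2, 0.36 for COX7A1, 0.14 for COX7A2, 0.24 for NDUFA13, 0.28 for NDUFB7, 0.038 for NDUFV3, 0.23 for UQCR10 and 0.0074 for UQCRC1. Without LFC 5 and HFC 13, 14 and 16 they were 0.091 for COX4I1, 0.25 for COX4I2, 0.091 for COX7A1, 0.039 for COX7A2, 0.017 for NDUFA13, 0.055 for NDUFB7 and 0.013 for UQCR10. DESeq2 gave 0.35 for ATP5I, -0.099 for COX6A2, 0.59 for COX7A1, 0.32 for NDUFA13, 0.38 for NDUFB7 and 0.35 for UQCR10, limma-voom gave 0.13 for COX4I2, 0.074 for COX7A1, 0.029 for NDUFB7 and 0.030 for UQCR10, and the surrogate variable gave -0.012 for SDHB. Both sets of several libraries were chosen after seeing the data. No paired analysis was possible because the replicate numbers 1 to 16 are not shared between the groups. The lowest count of a member in any library was 19, and the effect of depth on the precision was not tested.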
